A study of Mus musculus with 7 samples.

Results

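Kit signalling and the dormancy of primordial follicles were followed through 5 genes, Kitl, Kit, Foxo1, Foxo3 and Cdkn1b, chosen by name among the 31053 genes of the count tables. The ovaries came from wild-type C57BL/6J mice that had received no treatment, and each of the 7 libraries held cells pooled from several gonads of 1 age, from E11.5, through E12.5 and E14.5, on to E16.5 and E18.5, and then P1 or P5. The E11.5 gonads carried no label of sex. Trypsin was applied for 20 min at E11.5 and E12.5, 40 min at E14.5 and E16.5, 60 min at E18.5 and 80 min at P1 and P5, so that age, dissociation time and library cannot be told apart.

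Kitl encodes the ligand of the receptor tyrosine kinase Kit. In the ovary the ligand is made by somatic cells around the germ cells, and the receptor is carried by primordial germ cells and oocytes. In oocytes Kit acts through phosphatidylinositol 3-kinase (PI3K) and AKT, which phosphorylates the transcription factor Foxo3 and drives it out of the nucleus. Nuclear Foxo3 and p27, the cyclin-dependent kinase inhibitor encoded by Cdkn1b, restrain the activation of primordial follicles. RNA levels show neither the phosphorylation nor the location of these proteins.

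On GRCm38, Kitl (ENSMUSG00000019966) lies at chr10:100015630-100100416 and Foxo3 (ENSMUSG00000048756) at chr10:42181841-42276755, the latter on the minus strand. Kit (ENSMUSG00000005672) lies at chr5:75574916-75656722, Foxo1 (ENSMUSG00000044167) at chr3:52268336-52353221 and Cdkn1b (ENSMUSG00000003031) at chr6:134920401-134925513, all on the plus strand, as is Kitl. None overlapped another gene of the tables on its own strand, and Foxo1 was overlapped by Gm20402 on the other, where counting by strand is not given in the sources used here. Promoter sequences are shown for Kit and Foxo3, both highest in P1 germ cells, and for Cdkn1b, which was raised at E16.5 in every class compared. They are from RefSeq on GRCm38.p6, end 1 base before the annotated gene and read 5′ to 3′ on its strand, with capitals marking the GC box GGGCGG on either strand.
Kit, chr5:75574737-75574915, plus strand: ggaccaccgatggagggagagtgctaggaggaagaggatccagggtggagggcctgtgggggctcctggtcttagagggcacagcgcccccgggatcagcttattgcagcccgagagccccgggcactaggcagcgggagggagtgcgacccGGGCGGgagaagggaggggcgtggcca
Foxo3, chr10:42276756-42276945, minus strand: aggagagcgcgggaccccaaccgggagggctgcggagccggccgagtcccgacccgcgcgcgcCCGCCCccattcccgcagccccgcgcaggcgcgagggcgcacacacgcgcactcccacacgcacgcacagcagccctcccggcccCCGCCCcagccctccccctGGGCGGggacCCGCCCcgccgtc
Cdkn1b, chr6:134920151-134920400, plus strand: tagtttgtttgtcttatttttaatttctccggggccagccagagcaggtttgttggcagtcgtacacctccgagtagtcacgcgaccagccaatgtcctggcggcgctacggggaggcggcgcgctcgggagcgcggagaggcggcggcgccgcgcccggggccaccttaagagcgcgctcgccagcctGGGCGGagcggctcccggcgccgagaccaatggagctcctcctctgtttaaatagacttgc
In the 250 bases of each RefSeq window a GC box stood in 5 of the 5 genes and in 32.7% of all 32851 windows. The E-box CANNTG was found in 1 of the 5, Foxo1, against 66.2% of all windows, and the FOXO core GTAAACA in 0 of the 5 against 3.17%. Both strands were searched, and no base of these windows fell in 2 of the motifs. A match describes letters and is not a binding site.

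Of 50823 cells with at least 200 genes, germ cells were the 4760 with at least 3 unique molecular identifiers (UMIs) of Dazl and Ddx4, an RNA-binding protein and a helicase of the germ line. Wnt6-positive somatic cells were the 16871 other cells with at least 1 UMI of Wnt6, which encodes a secreted signal. In the study Wnt6 was among the markers of pregranulosa cells. At E11.5 it held cells with Wnt6 likely to be bipotential precursors, of Sertoli or pregranulosa cells. The study named its pregranulosa cells by Kitl among other genes, and Kitl was not used here to choose cells. By age the libraries gave 9, 321, 2669, 1016, 439, 244 and 62 germ cells and 458, 1873, 4759, 4230, 1631, 1762 and 2158 Wnt6-positive cells. The summed level of 8 other germ cell genes was 2343 to 5760.1 UMIs per 1000000 UMIs of the class (CPM) in germ cells and 4.11 to 52.7 CPM in Wnt6-positive cells. That of 10 supporting cell genes was 657 to 3265 CPM in Wnt6-positive cells and 37.5 to 209 CPM in germ cells. Wnt6-positive cells that also passed a somatic gate were kept, and 7 mesenchymal genes summed to 248 to 1120 CPM in the class. At E11.5 these summed to 588 CPM, beside 428 CPM of 5 epithelial and 212 CPM of 4 mesonephric genes. The sum of 9 erythroid genes was 4916 to 20541 CPM. Up to 19.6% of a library's germ cells also had a Wnt6 UMI and were counted as germ cells. The E16.5 library stood apart from the rest, with 0 to 3 cell barcodes shared with any other library, where the other 6 shared 22 to 136, and the comparisons were repeated without it. The labels give v2 chemistry for all 7. Whether E16.5 had another chemistry or barcode list was not tested, so that age and library preparation cannot be told apart in its levels.

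Levels are a gene's summed UMIs over those of all genes in a class of a library, in CPM, with an exact 95% Poisson interval that covers counting error only. Each age has 1 library and no replicate. Classes were therefore compared over the 7 libraries as pairs, and ages as 3 late libraries (E18.5, P1, P5) against 4 early ones, both with edgeR on summed counts and p-values adjusted over all genes tested. Values after ± are approximate SEs of the log2 fold change, taken as its absolute value over the square root of the edgeR F statistic.

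Kitl RNA was high in Wnt6-positive cells at every age, with its highest level at E16.5. It measured 154 and 358 CPM at E11.5 and E12.5, 406 and 1039.7 CPM at E14.5 and E16.5, and 475, 322 and 213 CPM at E18.5, P1 and P5. E11.5 and P5 were the lowest ages, and no neighbouring ages had overlapping intervals. In germ cells 0 UMIs of Kitl were found at E11.5, where 3 UMIs would be 13.4 CPM, and the level was 2.43 CPM at E12.5, 16.3 and 62.0 CPM at E14.5 and E16.5, and 32.9, 10.9 and 2.33 CPM at E18.5, P1 and P5.

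**Figure D1:**
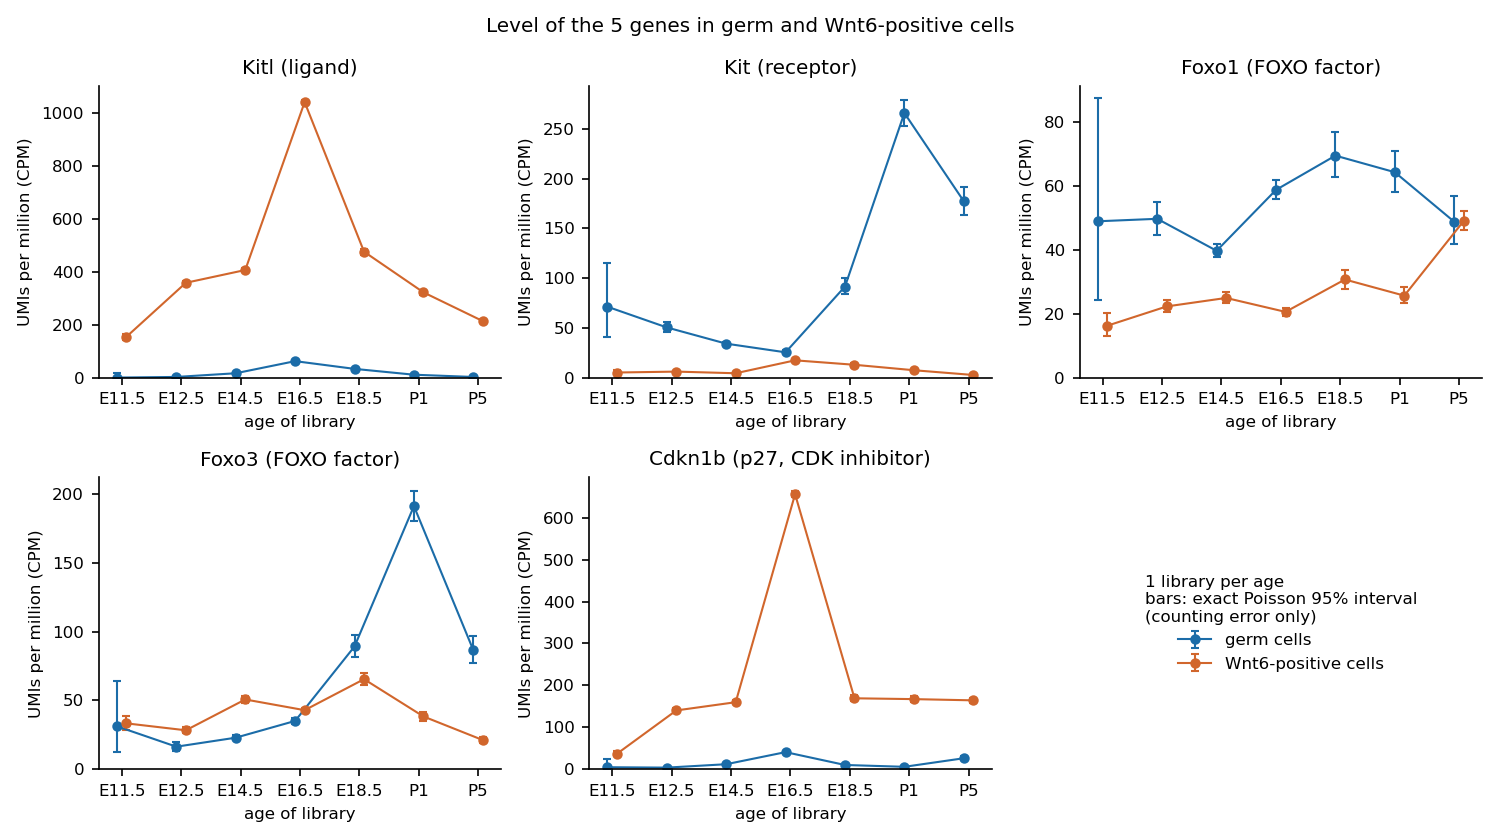
Levels of the 5 genes in germ cells (blue) and Wnt6-positive cells (orange) of the 7 libraries, in CPM (vertical axes from 0) by age, with exact Poisson 95% intervals as bars and 1 library per point. Kitl and Cdkn1b lay higher in Wnt6-positive cells in all 7 libraries and were highest at E16.5 (1039.7 and 656 CPM), and Kit and Foxo3 in germ cells were highest at P1 (266 and 192 CPM).

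Kitl was lower in germ cells than in Wnt6-positive cells (log2 fold change -4.97 ± 0.44 SE, adjusted p = 3.03e-06, 7 of 7 libraries). In this comparison 23.9% of 13513 genes were called higher in germ cells and 30.6% higher in Wnt6-positive cells. The call for Kitl held with each library left out (-5.23 to -4.62). Genes of the supporting cells were found in germ cells too. As a percentage of the Wnt6-positive level, germ cells held 4.02% of Kitl and 6.41% of the supporting cell genes at E14.5. At E11.5, in 9 germ cells, the values were 0% and 7.46%, at E12.5 0.678% and 3.91%, and at P1 3.38% and 3.08%. These values were 5.97% and 6.00% at E16.5, 6.92% and 6.38% at E18.5, and 1.09% and 2.09% at P5, and the part of such RNA in the germ cell level of Kitl was not tested. With cells that passed 2 or more class gates left out, Kitl in germ cells was 12.02 CPM at E16.5 and 15.8 CPM at E18.5.

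Among 7 classes of cells with at least 20 cells in a library, Kitl was highest in Wnt6-positive cells in 7 of 7 libraries. The 10644 other cells, which passed none or several of the remaining gates, were not ranked for any gene. Their Kitl was 15.2 and 68.1 CPM at E11.5 and E12.5, and 214 and 290 CPM at E14.5 and E16.5. Endothelial cells, gated on Cdh5, Pecam1 and Cldn5, held 464 CPM at E16.5 and 70.4 to 146 CPM at the other ages with enough cells. In this class the 8 germ cell genes summed to 1144 and 1255 CPM at E11.5 and E12.5. At the later ages with enough cells they summed to 17.8 to 36.4 CPM. The part of such RNA in the levels of the class was not tested. Epithelial cells, with at least 3 UMIs of Upk3b and Krt19 but no Wnt6, held 13.9 CPM at E11.5, 118 CPM at E12.5, 224 CPM at E14.5 and 124 CPM at P5, the ages with enough cells. Mesenchymal cells had 17.9 to 84.7 CPM and immune cells 4.02 to 15.4 CPM.

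**Figure D2:**
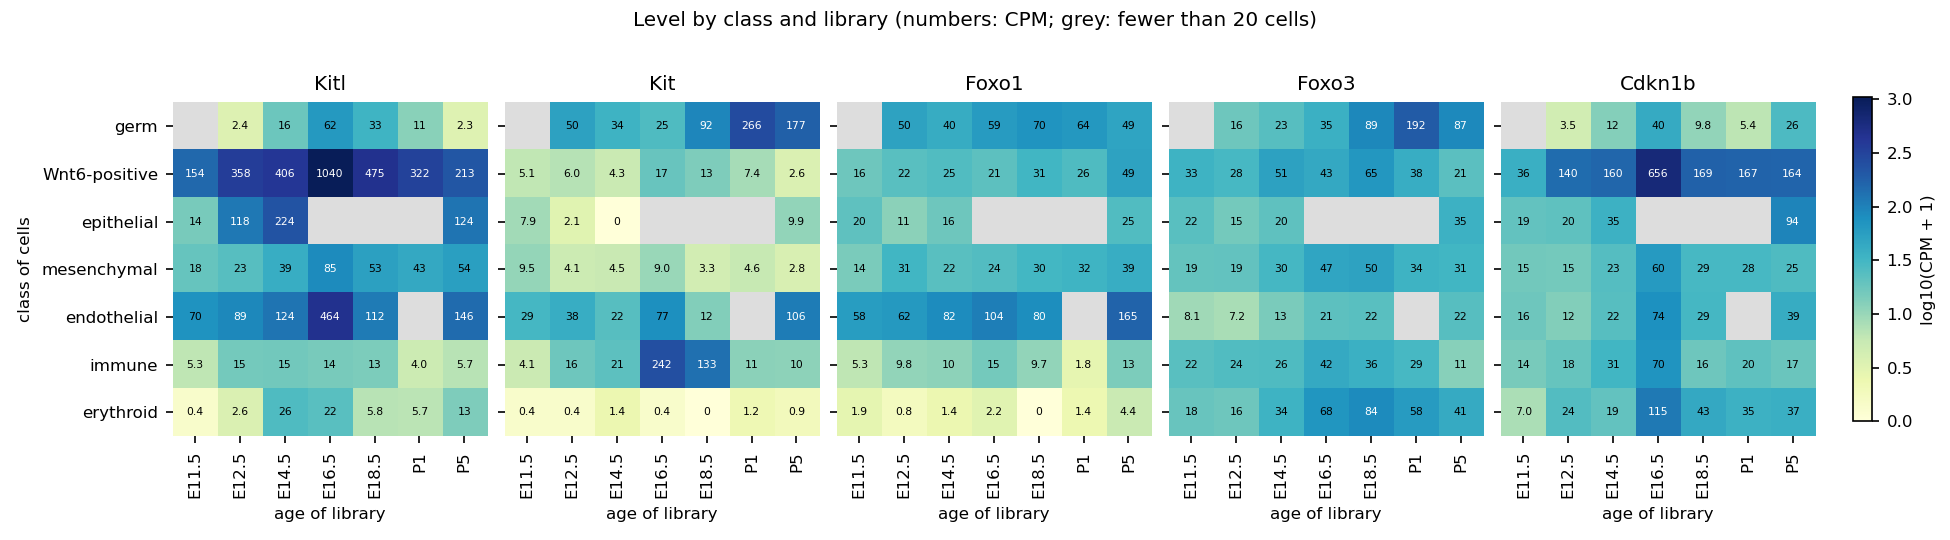
Level of each gene in 7 classes of cells (vertical axis) by age of the library (horizontal axis), coloured by log10(CPM + 1) with the CPM printed and grey where a class had fewer than 20 cells. Kitl and Cdkn1b were highest in Wnt6-positive cells in every library. Foxo1 was highest in endothelial cells in 6 of 7 libraries, although the germ to endothelial ratio had an interval that included 1 at E11.5, E12.5 and E18.5. At P1 the endothelial class, with 18 cells, was not ranked. Kit was highest in germ cells in 4 of 7 libraries and in immune cells at E16.5 (242 CPM) and E18.5 (133 CPM). For Kit the interval of the germ to endothelial ratio included 1 at E12.5 and E14.5.

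Within the Wnt6-positive cells Kitl varied with Foxl2, a transcription factor of granulosa cells, and with Gng13, a G protein subunit gene of the ovarian surface and of pregranulosa cells that enter from it. Cells with neither gene had the lowest Kitl in each library, at 126 and 217 CPM at E11.5 and E12.5, 284 and 286 CPM at E14.5 and E16.5, and 273, 129 and 134 CPM at E18.5, P1 and P5, although at P5 the interval overlapped that of cells with Gng13 alone. Cells with Foxl2 alone and with Gng13 alone had 465 and 411 CPM at E12.5, 371 and 425 CPM at E14.5, and 1228 and 912 CPM at E16.5. The order of these groups thus turned at E14.5 and turned back at E16.5. At E18.5 cells with Foxl2 alone had 634 CPM and cells with Gng13 alone 408 CPM, a ratio of 1.55 (95% interval 1.45 to 1.66). At P1 the levels were 487 and 222 CPM, a ratio of 2.19 (95% interval 2.03 to 2.37). At P5 they were 248 and 138 CPM, a ratio of 1.79 (95% interval 1.62 to 1.99). These groups rest on single UMIs and so on depth, and E11.5 had under 20 Wnt6-positive cells in each group with Foxl2.

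**Figure D3:**
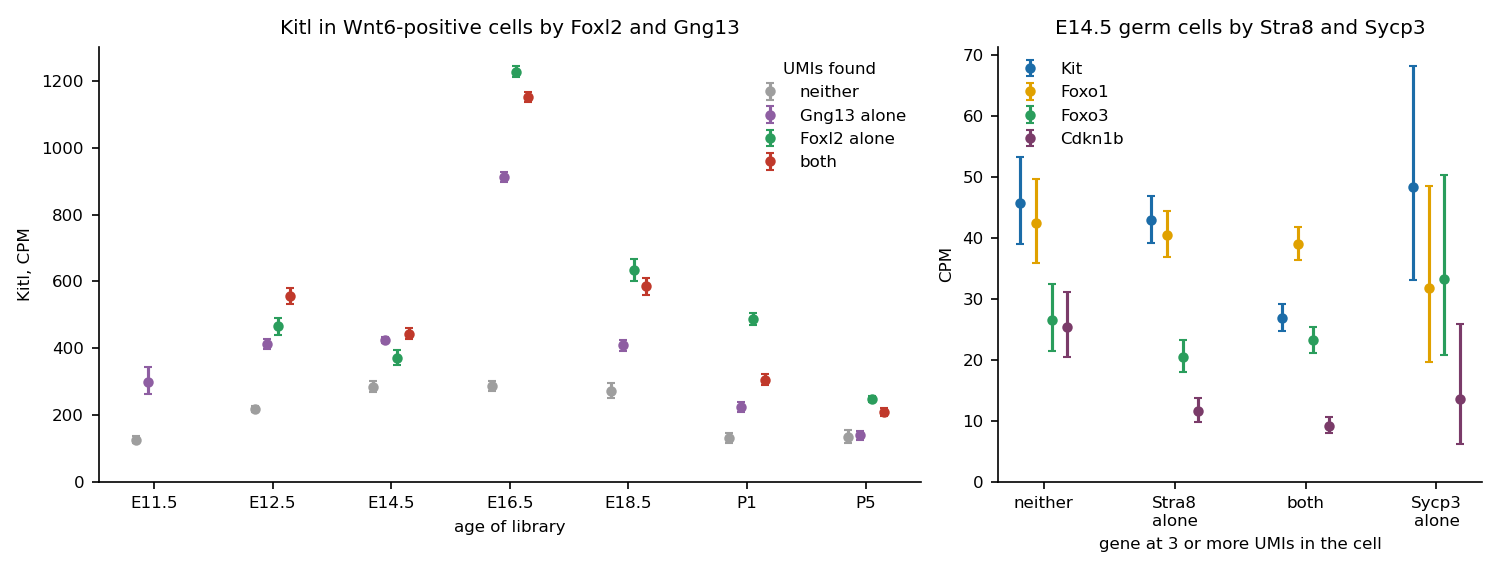
Left, Kitl in Wnt6-positive cells (CPM) by age, divided by the presence of Foxl2 and Gng13 UMIs. Right, Kit, Foxo1, Foxo3 and Cdkn1b in E14.5 germ cells (CPM), divided by whether a cell had at least 3 UMIs of Stra8, Sycp3, both or neither, with exact Poisson 95% intervals as bars in both plots. From E16.5 on Kitl was higher with Foxl2 alone than with Gng13 alone, and Kit and Cdkn1b were lower in E14.5 germ cells with both Stra8 and Sycp3 (26.9 and 9.18 CPM) than in those with neither (45.8 and 25.4 CPM).

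Wnt6-positive cells with Amh, which encodes anti-Müllerian hormone, a product of granulosa cells, had more Kitl than those without it at P1 (479 against 314 CPM) and P5 (236 against 205 CPM), the P1 split having been added after seeing the data. Cells with Pax8, a transcription factor of the mesonephros, had less Kitl than those without it at E12.5 (189.8 against 388 CPM), E14.5 (248 against 419 CPM), E16.5 (581 against 1086 CPM), E18.5 (232 against 482 CPM) and P1 (150.5 against 330.5 CPM). At E11.5 and P5 the intervals overlapped.

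The receptor gene Kit had its lowest level in germ cells at E16.5 and its highest at P1. It measured 71.2 and 50.4 CPM at E11.5 and E12.5, 34.1 and 25.4 CPM at E14.5 and E16.5, and 91.5, 266 and 177 CPM at E18.5, P1 and P5, the E11.5 value in only 9 cells. The 3 late libraries stood above the 4 early ones, although the intervals of E18.5 and E11.5 overlapped (ratio 1.28, 95% interval 0.783 to 2.27). P1 was 10.5 times E16.5 (95% interval 9.55 to 11.495), the library whose barcodes stood apart. P1 was also 7.80 times E14.5 (7.24 to 8.40), 5.27 times E12.5 (4.71 to 5.92) and 3.73 times E11.5 (2.29 to 6.55). P5 was 0.667 times P1 (0.606 to 0.732).

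Counted per cell, Kit was higher at P5 than at P1. A germ cell held on average 0.632 and 1.15 UMIs of Kit at E16.5 and E18.5, then 6.62 and 9.84 at P1 and P5, while the median germ cell held 20902 UMIs in all at P1 and 60954 at P5. After each cell had been thinned to 2000 UMIs, Kit was found in 3.92% and 13.2% of germ cells at E16.5 and E18.5, and in 36.5% and 30.6% at P1 and P5, the last 2 with overlapping intervals. In Wnt6-positive cells the thinned share was 0.618 to 3.43% from E12.5 on. Without thinning the shares in germ cells at these 4 ages were 30.0%, 47.8%, 79.5% and 95.2%.

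Between late and early germ cell libraries Kit did not pass the edgeR test (log2 fold change 1.88 ± 0.52 SE, adjusted p = 0.0971). Here 1.07% of 12159 genes were called higher and 0.189% lower in late libraries, and DESeq2 called 503 higher and 404 lower. Kit passed without E16.5 (1.73, adjusted p = 0.0290), without E18.5 (2.20, adjusted p = 0.0459) and with DESeq2 (1.93, adjusted p = 0.0128). With 1 library left out its log2 fold change was 1.47 to 2.20, lowest without P1 (adjusted p = 0.416).

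Kit was higher in germ cells than in Wnt6-positive cells in 7 of 7 libraries (log2 fold change 3.63 ± 0.56 SE, adjusted p = 0.000198), also with each library left out (3.23 to 4.09). The ratio of germ to Wnt6-positive cells was smallest at E16.5, 1.46 (95% interval 1.32 to 1.62), where Wnt6-positive cells had 17.3 CPM. Elsewhere Wnt6-positive cells had 2.61 to 12.9 CPM and the ratio was 7.11 to 68.0. At E16.5 Wnt6-positive cells held 68.3% of the germ cell level of Kit and 0.804% of that of the 8 germ cell genes. The part of germ cell RNA in the Kit level of Wnt6-positive cells was not tested.

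Kit was also present in endothelial and immune cells, and among classes with at least 20 cells germ cells held the most in 4 of 7 libraries. Endothelial cells were highest at E11.5, where germ cells were too few to be ranked and germ cell genes were found in the endothelial class. Endothelial cells held 12.1 to 106 CPM, with 76.9 CPM at E16.5 against 25.4 CPM in germ cells. Cells that passed none or several of the gates, which were not ranked, held 45.1 CPM at E16.5. Immune cells were highest at the remaining ages, with 242 CPM at E16.5 and 133 CPM at E18.5. Mast cells, which depend on Kit, were marked in the immune class at these ages, where 6 mast cell genes summed to 5425 and 15351 CPM and 0 of them were at 0 UMIs. At E14.5, P1 and P5 they summed to 3937, 375 and 2112 CPM in immune cells, while Kit there was at 20.5, 10.7 and 10.5 CPM. Of the 6 genes, 3 were at 0 UMIs in immune cells at E14.5 and 0 at P1 and P5. In germ cells the 6 genes summed to 11.8 CPM at E18.5, 45.7 CPM at P1 and 2.03 CPM at P5, and their part in the germ cell level of Kit was not tested. In Wnt6-positive cells they summed to 11.51 CPM at E16.5, 45.8 CPM at E18.5 and 11.02 CPM at P1, where Kit was at 17.3, 12.9 and 7.39 CPM.

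At E14.5 germ cells spread over the entry into meiosis, read from Stra8, which starts it, and Sycp3, a component of the synaptonemal complex. Kit was 45.8 CPM (95% interval 39.1 to 53.4) in 313 cells with under 3 UMIs of each and 43.0 CPM (95% interval 39.2 to 47.0) in 789 cells with Stra8 alone. It was 26.9 CPM (95% interval 24.7 to 29.2) in 1508 cells with both and 48.4 CPM (95% interval 33.1 to 68.3) in 59 cells with Sycp3 alone. Cells with both genes thus had less Kit than the other 3 groups, while the Foxo1 intervals of the 4 groups overlapped. At E16.5 Kit was again lower with both (11.45 CPM, 92 cells) than with Sycp3 alone (27.3 CPM, 893 cells).

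Germ cells at or above the median UMIs of their library had more Kit than those below it at E14.5 (37.4 against 26.5 CPM), E18.5 (101 against 69.4 CPM) and P1 (289 against 178 CPM). At P5 the values were 165 against 211 CPM, in the other order. At P1 Foxo3 was also higher in the cells at or above the median (201 against 156 CPM). In germ cells at or above and below the median, the supporting cell genes summed to 224 and 176 CPM at E14.5 and 166 and 205 CPM at E18.5. They summed to 34.9 and 162 CPM at P1 and to 29.3 and 59.996 CPM at P5, and their part in these differences was not tested. The study scored some germ cells with low UMI counts from E16.5 to P1 as nurse or dying cells, whose part was not tested either.

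Foxo1, a FOXO factor known from insulin signalling, ranged over 39.7 to 69.5 CPM in germ cells. It measured 49.0 and 49.7 CPM at E11.5 and E12.5, 39.7 and 58.8 CPM at E14.5 and E16.5, and 69.5, 64.3 and 48.8 CPM at E18.5, P1 and P5, and late and early libraries overlapped (log2 fold change 0.16 ± 0.36 SE, adjusted p = 0.865). Foxo1 was higher in germ cells than in Wnt6-positive cells (1.19 ± 0.24 SE, adjusted p = 0.00148), with ratios of 1.59 to 3.01 in 6 libraries. At P5 the ratio was 0.995 (95% interval 0.840 to 1.17), with 49.1 CPM in Wnt6-positive cells, which had 16.3 to 30.7 CPM before. The late and early Wnt6-positive libraries were not called different (0.79 ± 0.31 SE, adjusted p = 0.425). Among classes with at least 20 cells, endothelial cells held the most Foxo1 in 6 of 7 libraries, from 57.7 CPM at E11.5 to 165 CPM at P5. At P1, where germ cells ranked first, the 18 endothelial cells were too few to be ranked. They had 136 CPM against 64.3 CPM in germ cells (germ to endothelial ratio 0.475, 95% interval 0.325 to 0.718). The interval of the germ to endothelial ratio included 1 at E11.5, E12.5 and E18.5, and the 9 germ cells of E11.5 were too few to be ranked. At E11.5 and E12.5 germ cell genes were also found in the endothelial class.

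Foxo3 RNA in germ cells was low up to E16.5 and higher from E18.5. It measured 31.2 and 16.3 CPM at E11.5 and E12.5, 22.9 and 35.1 CPM at E14.5 and E16.5, and 89.3, 192 and 86.6 CPM at E18.5, P1 and P5, the E11.5 value from 7 UMIs. Every late library stood above every early one, and E18.5 and P5 had overlapping intervals. Foxo3 rose from early to late germ cell libraries (log2 fold change 2.15 ± 0.43 SE, adjusted p = 0.0425, edgeR). The call held without E16.5 (2.36, adjusted p = 0.00659) or E18.5 (2.36, adjusted p = 0.0188). It was lost without E11.5 (2.18, adjusted p = 0.0975), E12.5 (2.03, adjusted p = 0.132), E14.5 (2.13, adjusted p = 0.132), P1 (1.67, adjusted p = 0.255) or P5 (2.36, adjusted p = 0.113), and DESeq2 gave 2.20, adjusted p = 0.000481.

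Per germ cell Foxo3 was at 0.873 and 1.12 UMIs at E16.5 and E18.5, and at 4.77 and 4.81 UMIs at P1 and P5. The lower CPM at P5, 0.452 times P1 (95% interval 0.397 to 0.514), thus went with nearly the same number of UMIs per cell. Thinned to 2000 UMIs, 6.09% and 15.0% of germ cells had a Foxo3 UMI at E16.5 and E18.5, and 30.9% and 12.9% at P1 and P5, against 3.95 to 11.9% of Wnt6-positive cells.

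In Wnt6-positive cells Foxo3 followed another course, with 33.3 and 28.3 CPM at E11.5 and E12.5, 50.7 and 42.9 CPM at E14.5 and E16.5, and 65.5, 38.3 and 21.1 CPM at E18.5, P1 and P5. Germ cells lay below them in the 4 early libraries, with ratios of 0.451 to 0.936 and an interval that included 1 at E11.5, and above them at E18.5 (1.36), P1 (4.997) and P5 (4.10). Over all 7 libraries the classes were not called different (0.48 ± 0.40 SE, adjusted p = 0.327). Tested as a difference between the periods, in a fit added after seeing the data, the Foxo3 contrast of germ to Wnt6-positive cells did not pass (2.02 ± 0.51 SE, adjusted p = 0.122). In that fit 0.155% of 13513 genes were called higher in late libraries and 0.0222% lower, with none of the 5 genes among them. Erythroid cells, gated on haemoglobin RNA, held 16.2 to 83.5 CPM of Foxo3 and the most of any class at E16.5.

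**Figure D4:**
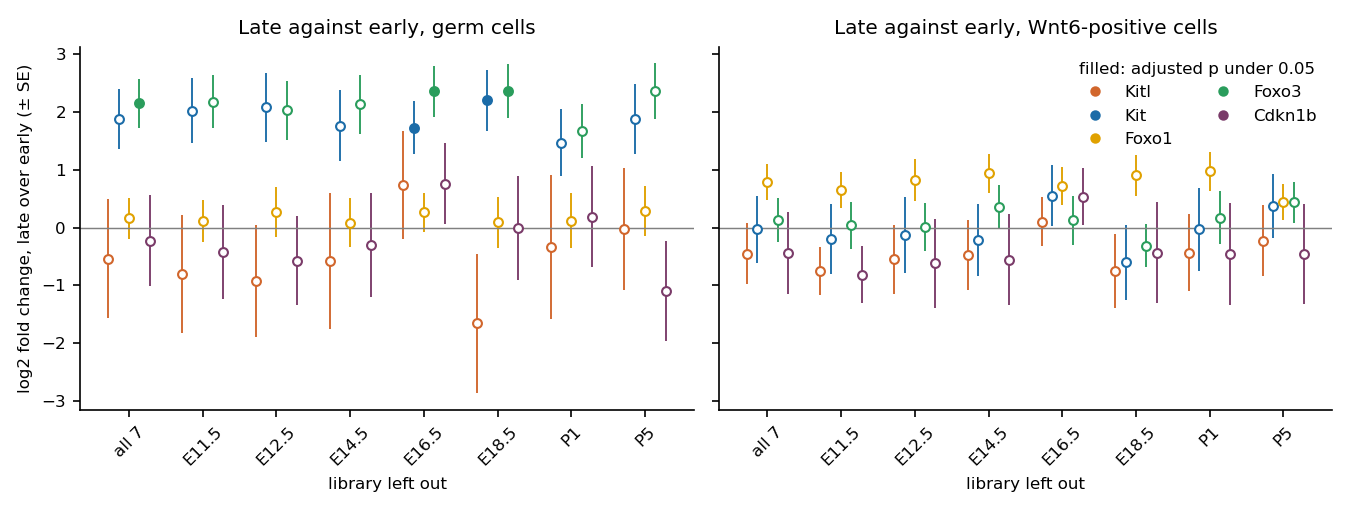
Log2 fold change (± SE, edgeR) of the 5 genes in late over early libraries, in germ cells (left) and Wnt6-positive cells (right), with all 7 libraries and with each library left out in turn. Filled points have an adjusted p under 0.05, which Foxo3 in germ cells reached in 3 fits and Kit in 2. In germ cells all values of both genes lay between 1.47 and 2.36.

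Kit and Foxo3 were both found in most germ cells at P1 and P5. At P1, of 233 cells with at least 2000 UMIs, 75.5% had both, against a product of 69.3%, and after thinning 11.2% against 9.71%. At P5 the shares were 88.7% and 86.0%, in 62 cells, and 4.84% and 4.45% after thinning. At E14.5 the thinned share of 0.193% lay below its product of 0.259%, as did 1.15% below 1.55% at E18.5 and 0% below 0.303% at E12.5. At E16.5 it was 0.310%, above its product of 0.234%. These shares, each of few cells, came from 313, 2592, 969 and 433 cells at E12.5, E14.5, E16.5 and E18.5. Cells of high depth have more of both genes, and none of these differences was tested.

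Cdkn1b RNA had its highest level in the Wnt6-positive cells of each library. Its level there was 36.4 and 140.0 CPM at E11.5 and E12.5, 159.7 and 656 CPM at E14.5 and E16.5, and 169, 167 and 164 CPM at E18.5, P1 and P5. Leaving aside E11.5, the lowest, and E16.5, the highest, the ages lay within 1.21 times of one another. Wnt6-positive cells held the most Cdkn1b of the 7 classes in 7 of 7 libraries, and germ cells held less (log2 fold change -3.93 ± 0.32 SE, adjusted p = 1.57e-06, -4.16 to -3.71 with each library left out). Between late and early Wnt6-positive libraries edgeR called 0% of 14829 genes higher and 0% lower, although 1517 had an unadjusted p under 0.05 and DESeq2 called 194 higher and 152 lower. Among those not called were Cdkn1b (-0.44 ± 0.71 SE, adjusted p = 0.893), Kitl (-0.45 ± 0.53 SE, adjusted p = 0.838) and Foxo3 (0.13 ± 0.37 SE, adjusted p = 0.9504). The 10 genes of dissociation stress summed to 980.0 CPM at E11.5 and 7279 CPM at P1 in these cells, and their part was not tested.

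In germ cells Cdkn1b was at 4.45 and 3.505 CPM at E11.5 and E12.5, 11.6 and 40.5 CPM at E14.5 and E16.5, and 9.80, 5.43 and 25.9 CPM at E18.5, P1 and P5, the E11.5 value from 1 UMI. The germ cell level was 7.27% and 6.17% of the Wnt6-positive level at E14.5 and E16.5, and 5.80% and 3.25% at E18.5 and P1. At the same ages the supporting cell genes in germ cells were at 6.41%, 6.00%, 6.38% and 3.08% of their Wnt6-positive level. At P5 the values were 15.8% for Cdkn1b and 2.09% for the supporting cell genes. P5 was 4.76 times P1 (95% interval 3.16 to 7.33), and a germ cell held 1.44 UMIs of Cdkn1b at P5 and 0.135 at P1. With cells that passed 2 or more gates left out the level was 21.3 CPM at P5 and 3.95 CPM at P1.

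At E14.5 Cdkn1b was 25.4 CPM (95% interval 20.5 to 31.2) in germ cells with neither Stra8 nor Sycp3, 11.6 CPM with Stra8 alone and 9.18 CPM with both. The supporting cell genes in these groups summed to 319, 213 and 191 CPM, and their part in the difference was not tested. Late and early germ cell libraries were not called different in Cdkn1b (-0.23 ± 0.79 SE, adjusted p = 0.919), and the sign turned without E16.5 (0.76) or P1 (0.19).

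The E16.5 level of Cdkn1b was raised across classes. In each of 6 classes with at least 20 cells at E14.5, E16.5 and E18.5, genes with a mean of at least 20 CPM over these ages were compared. E16.5 was at least 2 times both neighbours in 6 classes for Cdkn1b, 2 for Kitl (Wnt6-positive and endothelial cells), 1 for Kit (endothelial cells) and 0 for Foxo1 and Foxo3. Kit in mesenchymal cells, below that mean, had 4.46, 9.04 and 3.35 CPM at these ages and would also have passed. Of all genes compared, 7.26% of 6340 were as high at E16.5 in Wnt6-positive cells and 13.6% of 6073 in germ cells. The shares were 15.3% in endothelial, 12.1% in immune, 10.3% in mesenchymal and 9.73% in erythroid cells. Erythroid cells had 115 CPM of Cdkn1b at E16.5, 18.9 CPM at E14.5 and 43.2 CPM at E18.5. At E16.5 the supporting cell genes summed to 2708 CPM in Wnt6-positive cells. They summed to 162, 558, 89.2, 235 and 75.1 CPM in germ, mesenchymal, endothelial, immune and erythroid cells. The part of such RNA in the Cdkn1b levels of these classes was not tested. The part of the library, whose barcodes stood apart, was not tested either.

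The other genes of the pathway were read from 5 lists. Of 21 genes of the PI3K, AKT and mTOR branch, 10 were higher in germ cells, 2 were lower and 9 did not pass, with a median log2 fold change of 0.51 against -0.10 over all genes tested. Of all those genes, 23.9% were called higher and 30.6% lower in germ cells. Pik3cd (2.54 ± 0.59 SE, adjusted p = 0.00322) and Pik3cb (1.94 ± 0.30 SE, adjusted p = 0.000203), catalytic subunits of PI3K, were higher, as was the growth kinase gene Mtor (1.498 ± 0.26 SE, adjusted p = 0.000510). In Wnt6-positive cells Pik3cd and Pik3cb stayed at or below 1.96 and 5.12 CPM. Pik3r1, a regulatory subunit of PI3K, was lower (-2.41 ± 0.38 SE, adjusted p = 0.000238), with a median of 13.3 CPM in germ cells and 74.5 CPM in Wnt6-positive cells, and so was Akt1 (-0.65 ± 0.25 SE, adjusted p = 0.0472).

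Of 17 genes that act next to the receptor, 1 was higher in germ cells and 7 were lower, beside 23.9% and 30.6% of all genes, with a median of -0.55. The gene that was higher was Sh2b3 (1.61 ± 0.32 SE, adjusted p = 0.00121), an adaptor that restrains cytokine and Kit signals, with its highest germ cell level of 52.8 CPM at P1. Lower were the kinase gene Src (-3.04 ± 0.48 SE, adjusted p = 0.000218) and the docking protein genes Gab1 (-2.40 ± 0.27 SE, adjusted p = 1.76e-05) and Dok1 (-2.34 ± 0.63 SE, adjusted p = 0.00747). Their levels in germ cells were low, with medians over the libraries of 1.81 CPM for Src, 6.61 CPM for Gab1 and 1.48 CPM for Dok1. Of 14 genes of the RAS and MAPK branch, 2 were higher, Hras (0.71 ± 0.20 SE, adjusted p = 0.00998) and Map2k2 (0.53 ± 0.20 SE, adjusted p = 0.0433), and 2 were lower, the feedback inhibitors Dusp6 (-2.48 ± 0.45 SE, adjusted p = 0.000624) and Spry2 (-1.85 ± 0.43 SE, adjusted p = 0.00352). The median of this list was -0.30. Dusp6 and Spry2 were low in germ cells, with medians over the libraries of 1.74 and 3.56 CPM.

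**Figure D5:**
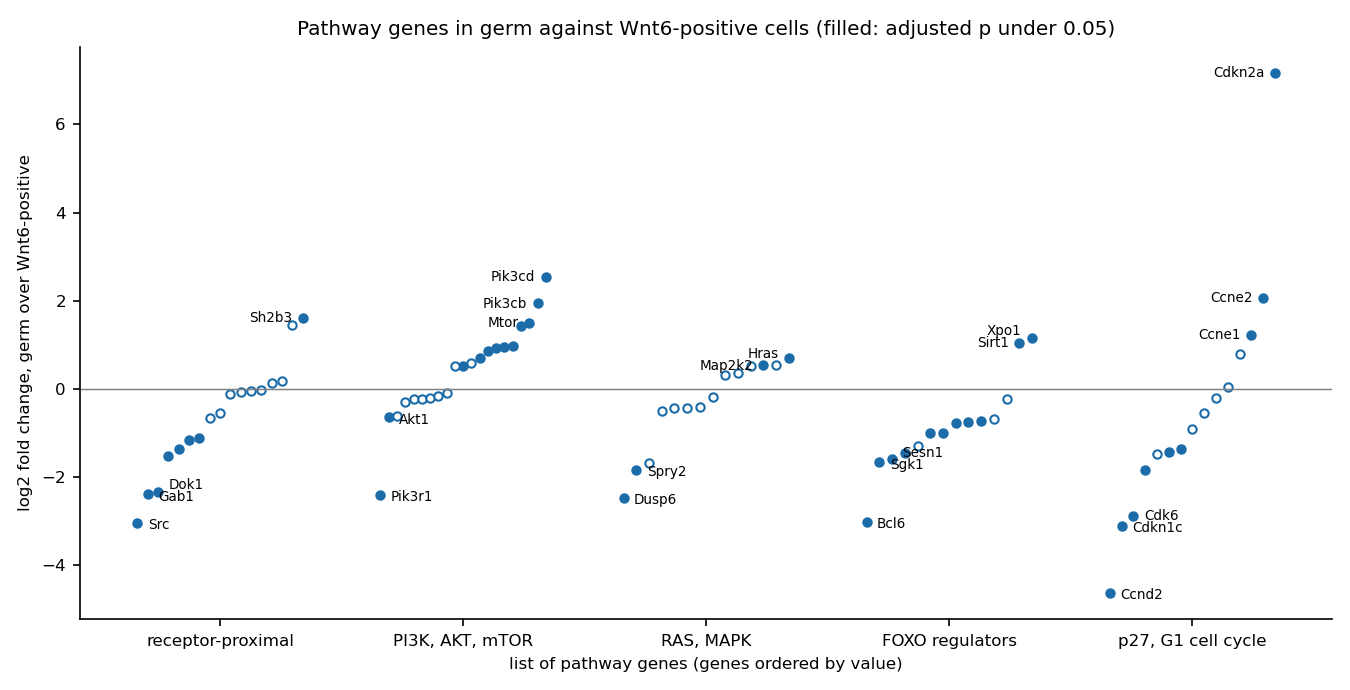
Log2 fold change of germ over Wnt6-positive cells (vertical axis, edgeR, 7 libraries) for the genes of 5 lists (horizontal axis), ordered by value within a list. Filled points have an adjusted p under 0.05, with names for the largest of these in each direction. Called higher and lower were 1 and 7 of 17 receptor-proximal genes, 10 and 2 of 21 PI3K, AKT and mTOR genes, and 2 and 2 of 14 RAS and MAPK genes. For FOXO regulators they were 2 and 9 of 14, and for p27 and the G1 cell cycle 3 and 6 of 15. Of all 13513 genes, 23.9% were called higher and 30.6% lower.

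Of 14 FOXO family members and regulators, 2 were higher in germ cells and 9 lower, beside the 23.9% and 30.6% of all genes, with a median of -0.89. Higher were Xpo1 (1.16 ± 0.22 SE, adjusted p = 0.000758), which exports proteins from the nucleus, and the deacetylase gene Sirt1 (1.04 ± 0.26 SE, adjusted p = 0.00532). The 3 largest of the opposite sign were the repressor gene Bcl6 (-3.02 ± 0.59 SE, adjusted p = 0.00103), which stayed at or below 5.81 CPM in both classes, the kinase gene Sgk1 (-1.67 ± 0.48 SE, adjusted p = 0.0109) and Sesn1 (-1.58 ± 0.28 SE, adjusted p = 0.000484), a sestrin gene.

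Of 15 genes of p27 and the G1 cell cycle, 3 were higher in germ cells and 6 lower, where 23.9% and 30.6% of all genes were, with a median of -0.90. The inhibitor gene Cdkn2a (7.17 ± 0.44 SE, adjusted p = 3.44e-07) had 4.45 to 142 CPM in germ cells and at most 2.11 CPM in Wnt6-positive cells. The E cyclin genes Ccne2 (2.05 ± 0.49 SE, adjusted p = 0.00361) and Ccne1 (1.23 ± 0.35 SE, adjusted p = 0.0114) were also higher. Lower were Ccnd2 (-4.64 ± 0.35 SE, adjusted p = 1.02e-06), a D cyclin gene of granulosa cells, Cdkn1c (-3.11 ± 0.50 SE, adjusted p = 0.000285), which encodes p57, and the kinase gene Cdk6 (-2.89 ± 0.37 SE, adjusted p = 4.52e-05). Between late and early libraries edgeR called 0 of the 79 genes tested in germ cells and 0 of the 81 in Wnt6-positive cells. Of all genes tested, 1.07% were called higher and 0.189% lower in germ cells, and 0% in Wnt6-positive cells. An unadjusted p under 0.05 was found for 12 and 8 of the list genes, beside 2110 of all 12159 genes and 1517 of all 14829. DESeq2 called 8 and 3 of the list genes. Of all genes it called 503 higher and 404 lower in germ cells, and 194 and 152 in Wnt6-positive cells.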

How the data were processed

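Single-cell RNA was measured in 7 libraries on the 10x Genomics Chromium system with, per the labels, v2 chemistry. For every gene and cell the authors deposited a UMI count from Cell Ranger 3.1.0 on mm10, which had not been normalized. Doublets were not called; cells that passed 2 or more class gates were left out as an alternative. The 5 genes and the lists were chosen with earlier results of these data known.

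Cells with at least 200 genes were kept, 50823 of 52542, with 492138529 UMIs and a median of 6349 to 11060 UMIs per cell by library. Beside germ and Wnt6-positive cells, 5 classes were gated on haemoglobin (10% of UMIs) or on 3 UMIs of marker genes, for cells that passed 1 gate only. UMIs were summed per class and library, so that fewer cells of a type and less RNA per cell cannot be told apart in the sums of a library. Levels are CPM with exact Poisson intervals, ratios have exact conditional intervals, and shares have exact binomial intervals after thinning to 2000 UMIs (confidence level 95%). Splits of a class needed at least 20 cells.

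Summed counts were tested with the quasi-likelihood test of edgeR 4.0.16 in R 4.3.3 (TMM scaling, filterByExpr, Benjamini-Hochberg over all genes, threshold 0.05), with the library as a block between classes, after the test had been checked on simulated data. Beside depth and the changes set, the simulated means did not differ between libraries. The check thus covered neither the block nor the use of ages as replicates. DESeq2 1.42.0 was an alternative, as were no filter, no block, other gates, other cell filters and each library left out. Since ages stand in for replicates within early and late, p-values measure the spread between single libraries. Other steps used Python 3.11.15, numpy 2.4.6, scipy 1.17.1 and pandas 2.3.3. Positions are from GENCODE vM21 on GRCm38.

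Named genes are the 5, up to 3 called genes of each list in each direction with the largest log2 fold change in each edgeR comparison, and the 5 genes most like each of the 5 over genes with at least 50 CPM in a class. Markers serve as checks. From the lists, 1 other gene is not reported here.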

Additional observations from a re-analysis of the deposited data

Results flagged for a closer look

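Foxo3 in germ cells lay below Wnt6-positive cells in 4 of 4 early libraries and above them in 3 of 3 late ones. The E11.5 ratio, 0.936 (95% interval 0.371 to 1.97), rests on 7 UMIs in 9 germ cells. An edgeR fit of this change, chosen after seeing the data, gave 2.02 ± 0.51 SE (unadjusted p = 0.00180, adjusted p = 0.122), which did not pass over all genes. Foxo3 passed without E16.5 (2.16, adjusted p = 0.0344) or E18.5 (2.58, adjusted p = 0.0186), and with any other library left out the adjusted p was 0.214 to 0.537. Kit did not pass in the same fit (1.93 ± 0.88 SE, adjusted p = 0.318).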

How the results depend on the processing

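The class differences of Kitl, Kit, Foxo1 and Cdkn1b kept their direction and their call, and that of Foxo3 its direction, under every alternative run, among them DESeq2, no library block, other gates and each library left out. The median of all genes was -0.10 with edgeR and -0.24 with DESeq2. The late and early comparison was less stable. In germ cells 130 genes were called higher and 23 lower. The counts were 503 and 404 with DESeq2, 595 and 268 with no filter on low counts, 227 and 77 with a germ gate of 10 UMIs, 420 and 495 without E11.5 and E16.5 (chosen after seeing the data), and 0 to 1010 and 0 to 674 with 1 library left out. With cells of 2 or more gates left out 9 were lower. In Wnt6-positive cells the counts were 194 and 152 with DESeq2, 0 to 1 and 0 to 3 with 1 library left out, and 1 lower without E11.5 and E16.5. Log2 fold changes with 1 library left out were, in germ cells, -1.66 to 0.73 for Kitl, 1.47 to 2.20 for Kit, 1.67 to 2.36 for Foxo3 and -1.10 to 0.76 for Cdkn1b. In Wnt6-positive cells they were -0.76 to 0.11 for Kitl, -0.60 to 0.55 for Kit, -0.32 to 0.44 for Foxo3 and -0.81 to 0.54 for Cdkn1b, and for the class difference between periods -0.61 to 0.65 for Kitl and -0.50 to 0.61 for Cdkn1b. Kit in germ cells passed with DESeq2 (1.93). The sign turned in germ cells for Kitl (0.30) and Cdkn1b (0.38) with cells of 2 or more gates left out and (0.34 and 0.50) without E11.5 and E16.5, and in Wnt6-positive cells for Kit with the germ gate of 10 UMIs (0.049) and for Kit (0.50) and Cdkn1b (0.11) without E11.5 and E16.5. The cause was not tested. Of 35 levels in the class where a gene was followed, 1 to 22 moved beyond their counting interval under 7 alternatives, by 0.552 to 1.77 times. Of all 70 levels in both classes 8 to 32 moved, by 0.194 to 3.15 times. Of 70 shares, 68 moved without thinning and 56 when thinned to 1000 UMIs. No paired analysis of ages was possible because each age has 1 library, and the pairing of classes within a library comes from the libraries themselves. The 9 germ cells at E11.5 and 62 at P5 limit the precision there.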

Other observations

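The genes whose levels ran most like each of the 5 were ranked by Pearson r of log2(CPM + 5) over 44 combinations of class and library with at least 20 cells, among 8261 genes. The points share libraries and depth, so r is a description. Like Kitl were Reep1 (r = 0.913), Csgalnact1 (r = 0.911), Arhgap29 (r = 0.901), St5 (r = 0.876) and Peak1 (r = 0.873), each with its highest level in E16.5 Wnt6-positive cells, and like Cdkn1b Gm2044 (r = 0.813), Gm14226 (r = 0.800), Adamts16 (r = 0.797), Lrrn1 (r = 0.782) and Rmst (r = 0.778), highest in the same place. Like Kit were Map3k11 (r = 0.794), Nln (r = 0.778), Foxn2 (r = 0.775), Zcchc2 (r = 0.773) and Tatdn2 (r = 0.771), each highest in P1 germ cells. Foxo3 was most like Nmnat3 (r = 0.754), Cpeb3 (r = 0.717), 4930550C14Rik (r = 0.701), Cd55 (r = 0.680) and Cetn4 (r = 0.679). Foxo1 was most like Ccser2 (r = 0.919), Git1 (r = 0.905), Luzp1 (r = 0.890), Rasal2 (r = 0.879) and Afdn (r = 0.875). Among the 5 genes the closest pair was Kitl and Cdkn1b (r = 0.709 over 44 points and 0.709 over the 38 without E16.5), and Kit and Foxo3 had r = 0.197. Without E16.5 Reep1 and Ccser2 stayed first for Kitl and Foxo1, and Cetn4 (r = 0.763) came first for Foxo3. The 5 genes like Kit moved to ranks 4, 7, 23, 9 and 22, and those like Cdkn1b to ranks 9, 12, 3, 19 and 33. The repeat without E16.5 was chosen after seeing the data.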
